A study of Mus musculus with 2 samples.

Results

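Genes that copy DNA were compared between cells with high and cells with low Lgr5 reporter fluorescence from the pyloric stomach of the mouse. The set comprised 49 genes, of 27678 genes with a probe on the array, found by the gene name printed in the array files and sorted by the step of replication they serve: licensing, helicase, polymerases, nucleotide supply, chromatin copying, and repair and control. All 49 had a probe, 68 probes in total, and 40 gave a signal that could be measured, against 7832 measured genes overall. Lgr5-EGFP-ires-CreERT2 knock-in mice were the source of all cells, so GFP was driven from the Lgr5 locus in both populations. Dissociated pyloric tissue pooled from 20 mice gave 2 sorted populations, GFPhigh and GFPlow, and both came from the same stomachs and the same strain with no treatment named. The populations shared each of 2 Agilent arrays, GFPhigh carrying Cy3 on array 1 and Cy5 on array 2. The labels name no separate RNA samples behind the 2 arrays of this dye swap, so the arrays were counted as 1 replicate. No test was made and no p-value is given, and the SD shown is the spread between the 2 arrays.

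Replication begins when the origin recognition complex, with Cdc6 and Cdt1, loads the MCM helicase onto DNA, a step called licensing that geminin blocks once copying has begun. In S phase the helicase is switched on by Mcm10, Cdc45 and the GINS complex, polymerases extend both strands behind it, and enzymes of nucleotide synthesis feed them. Nucleosomes and DNA methylation are copied at the same time, and most of the genes involved are transcribed under E2F factors shortly before and during S phase. In pyloric glands, many of the dividing cells lie between the pit cells of the surface and the cells of the gland base, with endocrine cells scattered among them.

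Values are log2 ratios of GFPhigh over GFPlow, given as the mean ± SD of the 2 arrays, so a negative ratio means a lower signal in GFPhigh. A call means a ratio of at least 2-fold in the same direction on each array. A measured gene is one whose brighter population cleared the background on both arrays. Levels are normalized log2 intensities. They serve to compare the populations at 1 probe, not to compare genes with each other. The 12 measured genes of the set with GFPhigh above background on 1 array all passed on array 1 and failed on array 2. Mcm2, for example, passed at a level of 7.16 on array 1 and failed at 7.59 on array 2. Lgr5 itself checked the sort and was higher in GFPhigh, with ratios of 2.33 on array 1 and 2.24 on array 2.

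Replication genes were lower in GFPhigh as a group. Of the 40 measured genes, 18 were at least 2-fold lower in GFPhigh on each array, whereas 2.69% of all measured genes were. None of the 40 was higher in GFPhigh, a call made for 1.76% of all genes. The median ratio of the 40 was -1.15, with medians of -1.24 on array 1 and -1.11 on array 2, and the median of all measured genes was -0.06. With the 3 genes not above background in GFPhigh set at their bounds, the median was again -1.15. Each of them stayed on the same side of the median, so the bounds could not move it. A gene seen only in GFPlow had to be lower in GFPhigh to be measured, so 2 readings without that condition were made. Across all 49 genes regardless of brightness, 18 passed 2-fold, against 0.762% of all genes. The number of all genes called was 211 with and without the filter. The share fell only because 27678 genes were counted in place of 7832, so it adds nothing to the contrast. The median of the 49 was -1.0, and 48 had a ratio below 0 on both arrays, which held for 24.6% of all genes. The exception was Chek1. Among the 25 genes that cleared the background in GFPhigh and in GFPlow on each array, 13 passed 2-fold, against 2.23% of such genes, and the median was -1.21.

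**Figure D1:**
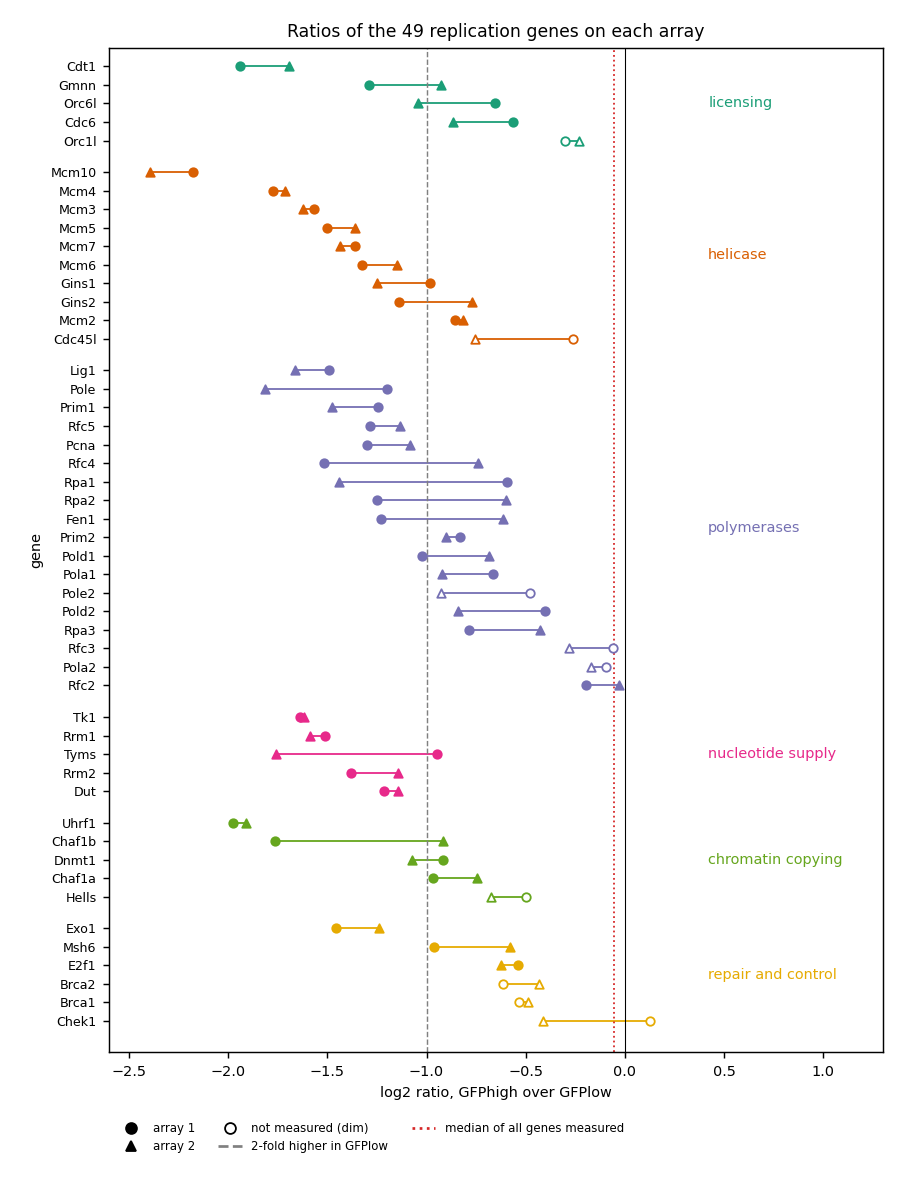
Log2 ratio of GFPhigh over GFPlow (horizontal axis) for each of the 49 genes (vertical axis), with array 1 as circles, array 2 as triangles and open symbols for the 9 genes too dim to be measured. Both symbols lie left of the dashed line, 2-fold lower in GFPhigh, for 18 genes, and the median of all measured genes (dotted line, -0.06) lies right of all but a few symbols.

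The measured genes stood together at the low end of the array. By mean ratio, 36 of the 40 were among the 783 lowest genes, which are the lowest 10%, and 8 were among the 100 lowest. At a threshold of 1.5-fold on each array, 34 of the 40 were lower in GFPhigh, against 7.51% of all genes. The ratio was below 0 on both arrays for all 40 measured genes and for 36.6% of all measured genes. Of the 40, 12 were above background in GFPhigh on 1 array and 3 on none. A mean ratio below 0 was a condition of measuring these, so the ranks and counts here hold them by design. The other 25 also had mean ratios below 0. Their median was -1.21, against 0.04 for all genes above background in both populations. Their ranks were not taken apart. The 2 arrays repeated the order of the 40 genes in part, with Pearson's r of 0.668 and Spearman's rho of 0.587 across genes, which are not independent replicates and share the same sorted populations. The SD of the difference between arrays was 0.38 over these genes and 0.57 over all measured genes. Besides the 18 called genes, 12 passed 2-fold on 1 array only and 10 on neither.

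Markers of other cell types also differed between the populations. All 6 epithelial markers were measured. Of these, only Krt19 was called, at -2.24 ± 0.04, and Krt8 (-1.19 ± 0.98), Cdh1, Cldn18, Krt18 and Epcam were not. Endothelial markers were all too dim to be measured (0 of 6), as were 9 of 10 leukocyte, 6 of 7 fibroblast and 3 of 5 smooth muscle markers, with Fcer1g, Col1a2, Acta2 and Tagln as the exceptions, none of them called. All 4 pit cell markers were lower in GFPhigh, with a median of -2.77 and a lowest ratio of -3.24 for Gkn2, and Gkn1, not above background in GFPhigh, was at least 3.07-fold lower there. Of 5 endocrine markers, 4 were called lower in GFPhigh and Gast had ratios of -0.49 and -1.25, with a median of -1.68 over the 5 and a lowest ratio of -2.90 for Chgb. In sorted bulk RNA, fewer cells of a type and less marker RNA per cell cannot be told apart. The part that these marker differences have in the replication result was not tested. Nor can fewer cells in S phase and less replication RNA per cell be told apart.

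Licensing genes had a median ratio of -0.98 over 4 measured genes, of which 1 was called. Cdt1, which carries the helicase to the origin, had levels of 9.26 and 9.33 in GFPhigh on arrays 1 and 2, against 11.20 and 11.02 in GFPlow. It was thus lower in GFPhigh on both arrays, by 3.53-fold, with a ratio of -1.82 ± 0.18. Gmnn encodes geminin, the inhibitor of Cdt1, and had levels of 10.66 and 10.76 in GFPhigh, against 11.95 and 11.69 in GFPlow. Its ratio of -1.11 ± 0.25 passed 2-fold on array 1 alone, so both the loader and its inhibitor lay below 0. Orc6l, a subunit of the origin recognition complex, had ratios of -0.66 and -1.04 on arrays 1 and 2 and passed 2-fold on array 2 alone. Cdc6, the ATPase that works with Cdt1, was not well above background in GFPhigh on either array. As processed here, its signal in GFPhigh was at least 1.54-fold lower than in GFPlow. Orc1l, the largest origin recognition subunit, was not well above background in either population.

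In the helicase group 6 of 9 measured genes were called, and the median was -1.40. Mcm10, which helps to start the loaded helicase, had the lowest ratio of the measured genes, except with the processed signals (-2.90) and the value table (-2.90), where Rrm2 was at -3.23 and -3.24. Its levels were 7.78 and 7.79 in GFPhigh, the first of them alone well above background, against 9.95 and 10.18 in GFPlow. The ratio of -2.28 ± 0.15 corresponds to a signal 4.87-fold lower in GFPhigh. Mcm2 to Mcm7 form the ring of the helicase. Mcm4 had levels of 9.33 and 9.26 in GFPhigh, against 11.10 and 10.97 in GFPlow, a ratio of -1.74 ± 0.04. Mcm3 had levels of 8.85 and 8.68 in GFPhigh, against 10.42 and 10.31 in GFPlow, a ratio of -1.59 ± 0.04. For Mcm5 the levels were 8.24 and 8.47 in GFPhigh, against 9.74 and 9.83 in GFPlow, a ratio of -1.43 ± 0.10. In these 3 genes both GFPlow levels lay above both GFPhigh levels, which a call of 2-fold on each array largely fixes in advance. A second Mcm3 probe passed 2-fold on array 1 alone, with -1.35 and -0.84 on arrays 1 and 2. Mcm7 followed at -1.40 ± 0.06 and Mcm6 at -1.24 ± 0.13. Mcm2 had -0.84 ± 0.03 and passed 2-fold on neither array, and its GFPhigh signal was well above background on 1 array only. Its distance from the other ring subunits followed the processing: with the processed signals Mcm2 was at -1.48 and Mcm6 at -1.33, and with normexp at offset 0 they were at -1.15 and -1.25. Gins1 and Gins2, subunits of the GINS complex that travels with the ring, had -1.12 ± 0.19 and -0.95 ± 0.26, and each passed 2-fold on 1 array. Cdc45l, the third part of the active helicase, was too dim in both populations.

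Promoters of 3 of these helicase genes are shown because they hold the letters of an E2F motif and the genes were called. Mcm7 has another RefSeq promoter, without these letters. The bases are the 250 before the start site, from RefSeq on GRCm38.p6, written 5′ to 3′ along the gene, with the motif letters in capitals. The Mcm5 sequence lies at chr8:75109259-75109508 on the + strand, that of Mcm6 at chr1:128359706-128359955 on the - strand and that of Mcm7 at chr5:138171884-138172133 on the - strand.
Mcm5 promoter: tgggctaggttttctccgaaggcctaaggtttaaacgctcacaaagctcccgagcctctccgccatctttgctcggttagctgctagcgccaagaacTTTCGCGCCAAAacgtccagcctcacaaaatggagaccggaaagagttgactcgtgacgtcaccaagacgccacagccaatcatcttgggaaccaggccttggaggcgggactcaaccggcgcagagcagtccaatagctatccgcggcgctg
Mcm6 promoter: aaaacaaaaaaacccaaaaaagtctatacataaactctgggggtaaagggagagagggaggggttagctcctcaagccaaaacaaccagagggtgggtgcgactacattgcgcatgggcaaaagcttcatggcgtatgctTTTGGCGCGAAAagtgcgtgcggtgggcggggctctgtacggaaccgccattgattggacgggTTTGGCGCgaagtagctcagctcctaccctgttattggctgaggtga
Mcm7 promoter: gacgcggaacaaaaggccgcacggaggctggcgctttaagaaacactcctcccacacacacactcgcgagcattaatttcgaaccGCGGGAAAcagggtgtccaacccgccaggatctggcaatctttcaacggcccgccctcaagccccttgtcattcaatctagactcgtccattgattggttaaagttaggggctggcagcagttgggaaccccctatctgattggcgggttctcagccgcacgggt
In Mcm5 the motif TTTCGCGC and, on the other strand, TTTGGCGC overlap, and they begin 153 and 149 bases before the start. Mcm6 has an overlapping pair that begins 110 and 106 bases before the start and a further TTTGGCGC at 47. Mcm7 has TTTCCCGC on the other strand, 165 bases before the start.

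Among the polymerases and fork proteins, 5 of 15 measured genes were called, with a median of -0.93. Lig1, the ligase that joins Okazaki fragments, had levels of 9.69 and 9.60 in GFPhigh, against 11.18 and 11.27 in GFPlow, and the lowest ratio of the step, -1.58 ± 0.12. Pole, the catalytic subunit of the leading strand polymerase, had levels of 7.20 and 6.90 in GFPhigh, against 8.39 and 8.72 in GFPlow. Its ratio of -1.51 ± 0.44 was lower on array 2 than on array 1, and GFPhigh was well above background on 1 array only. Prim1, the catalytic subunit of primase, had levels of 8.66 and 8.68 in GFPhigh, against 9.90 and 10.16 in GFPlow, with a ratio of -1.36 ± 0.16. Pcna, the sliding clamp that tethers polymerases to DNA, had levels of 10.40 and 10.50 in GFPhigh, against 11.70 and 11.58 in GFPlow, with a ratio of -1.19 ± 0.15. All 4 had every GFPlow level above every GFPhigh level, which follows largely from the call and adds nothing to it.

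The clamp loader subunits, which open Pcna and place it on DNA, did not share 1 ratio. Rfc5 was called, at -1.21 ± 0.10. Rfc4 had ratios of -1.51 and -0.74 on arrays 1 and 2 and passed 2-fold on array 1 alone. Rfc2 had levels of 11.49 and 11.83 in GFPhigh, against 11.69 and 11.86 in GFPlow. Its ratio was -0.11 ± 0.12, and it ranked 3479 from the lowest. A second Rfc2 probe gave -0.16 ± 0.07, so both probes of this gene lay near 0 after loess. Centred on the median or on the spike-in probes of each array, Rfc2 was at -0.94 and -0.99, where the medians of all genes were -0.49 and -0.53. In the mm9 coordinates of the files they lie on chromosome 5 at 135074132 to 135074191 and at 135073809 to 135073868. Rfc3 was too dim to be measured.

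The remaining fork genes passed 2-fold on 1 array or on neither. Rpa1, Rpa2 and Rpa3 encode the complex that coats unwound DNA, and had -1.02 ± 0.60, -0.93 ± 0.46 and -0.61 ± 0.25. The SDs of Rpa1 and Rpa2 were among the widest of the set, with Rpa1 past 2-fold on array 2 and Rpa2 on array 1. Fen1, the flap nuclease that trims Okazaki fragments, had -1.23 on array 1 and -0.62 on array 2. Pold1, the catalytic subunit of the lagging strand polymerase, had -0.85 ± 0.24, and its partner Pold2 had -0.62 ± 0.31. Second probes of Rpa2 (-0.71 and -0.55 on arrays 1 and 2) and Pold1 (-0.66 and -0.85) passed 2-fold on neither array. Prim2 had -0.87 ± 0.05 and Pola1, the catalytic subunit of the polymerase that extends primers, had -0.79 ± 0.18. GFPhigh was above background on 1 array for Fen1, Prim2, Pola1, Pold2 and Rpa3. Pole2 and Pola2 were not measured.

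Nucleotide supply had 4 of 5 genes called and a median of -1.35. Tk1, the kinase that salvages thymidine, had levels of 8.15 and 8.47 in GFPhigh, against 9.78 and 10.09 in GFPlow. Its ratio of -1.63 ± 0.01 had a smaller spread between arrays than that of any other measured gene of the set. Rrm1, the large subunit of ribonucleotide reductase, had levels of 8.12 and 8.13 in GFPhigh, against 9.63 and 9.72 in GFPlow, a ratio of -1.55 ± 0.05. Rrm2, the small subunit whose supply follows S phase, was not well above background in GFPhigh on either array. As processed here, its signal there was at least 2.38-fold lower than in GFPlow. Dut, which removes dUTP, had levels of 9.22 and 9.36 in GFPhigh, against 10.44 and 10.50 in GFPlow, a ratio of -1.18 ± 0.05. A second Dut probe passed on array 2 alone, with -0.93 and -1.02. Tyms, thymidylate synthase, had ratios of -0.95 on array 1 and -1.76 on array 2 and so passed on array 2 alone. A second measured Tyms probe passed on both arrays, with a mean of -1.27 ± 0.13.

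Among the genes that copy chromatin, 1 of 4 measured genes was called and the median was -1.17. Uhrf1, which reads methylation on the old strand and brings in Dnmt1, had levels of 7.39 and 7.61 in GFPhigh, against 9.37 and 9.52 in GFPlow. It was 3.84-fold lower in GFPhigh, with a ratio of -1.94 ± 0.04, and GFPhigh was above background on 1 array only. A second Uhrf1 probe gave -1.75 ± 0.10. Dnmt1, the methyltransferase that copies the mark, had -0.92 and -1.07 on arrays 1 and 2. Chaf1b, a subunit of the CAF-1 complex that places histones on new DNA, had -1.77 and -0.92, and Chaf1a, its partner, had -0.97 and -0.74. Only the array 1 ratio of Chaf1b and the array 2 ratio of Dnmt1 passed 2-fold. Hells, a remodeller that helps DNA methylation, was not measured. The Uhrf1 promoter, at chr17:56304063-56304312 on the + strand of GRCm38.p6, is shown for the same reason and in the same form as those above. Uhrf1 has another RefSeq promoter, without the letters.
Uhrf1 promoter: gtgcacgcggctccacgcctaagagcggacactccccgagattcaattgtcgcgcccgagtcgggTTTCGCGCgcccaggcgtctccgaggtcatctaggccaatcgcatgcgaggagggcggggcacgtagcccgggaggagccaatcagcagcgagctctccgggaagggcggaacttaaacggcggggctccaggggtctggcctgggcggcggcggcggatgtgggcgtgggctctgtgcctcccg
Its motif, TTTCGCGC, begins 185 bases before the start.

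Of 6 repair and control genes, 3 were measured and 1 was called, with a median of -0.77. Exo1, an exonuclease of mismatch repair and of break resection, had levels of 6.88 and 7.09 in GFPhigh, against 8.34 and 8.33 in GFPlow, a ratio of -1.35 ± 0.15. GFPhigh was above background on 1 array for Exo1. Msh6, which recognises mismatches, had -0.77 ± 0.27 and passed on neither array. E2f1, an activator of S phase genes, was not well above background in GFPhigh on either array. Its signal there was about 1.5-fold lower than in GFPlow, with a ratio of -0.58 ± 0.06. Brca1 and Brca2, which repair broken forks by recombination, and the checkpoint kinase gene Chek1 were too dim to be measured.

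**Figure D2:**
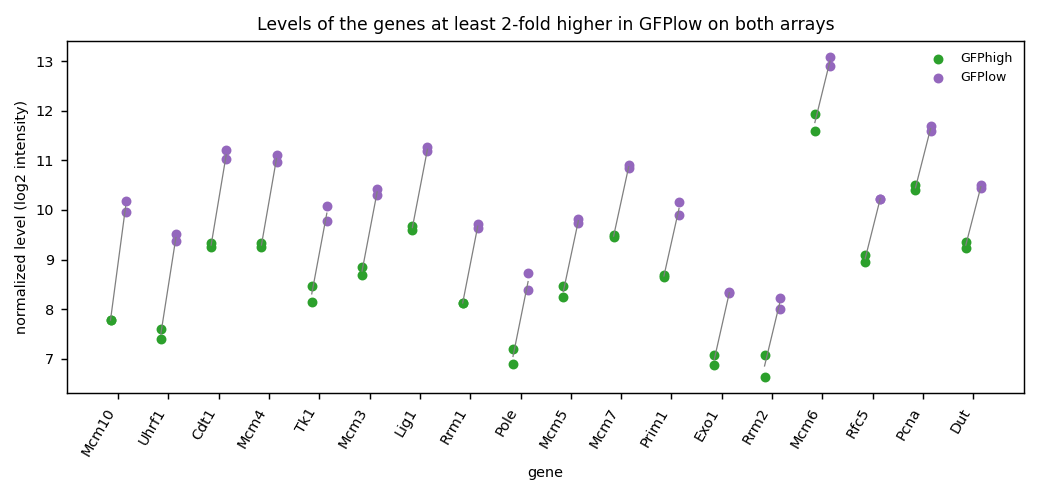
Normalized level in log2 intensity (vertical axis) of the 18 called genes (horizontal axis) in GFPhigh (green, left of each pair) and GFPlow (purple, right), 1 point per array with a line between the means of the 2 arrays. For each gene both GFPlow points lie above both GFPhigh points, which the call at 2-fold on each array largely fixes in advance. Mcm10 has the steepest line (-2.28) and Dut the flattest (-1.18). Levels of different genes are from different probes and cannot be compared.

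The same E2F letters were searched in every RefSeq promoter. Promoters were found for 41 of the 49 genes, 49 promoters in total. The letters TTTCCCGC, TTTCGCGC, TTTGCCGC and TTTGGCGC, on either strand within 250 bases before the start, occurred in 11 of these 49 promoters (22.4%), against 611 of 32851 promoters of all genes (1.86%). The 11 promoters belonged to Mcm5, Mcm6, Mcm7, Uhrf1, Dnmt1, Cdc6, Pola1, Orc1l, Hells, Rfc3 and Brca2. The last 4 of these genes were too dim to be measured. Among genes with a promoter and a measured ratio, the 7 with the letters had a median ratio of -1.24 and the 25 without them had -1.18. The ranges overlapped, with -1.94 to -0.72 for genes with the letters and -2.28 to -0.58 for genes without them. The CCAAT letters occurred in 55.1% of the promoters of these genes, against 33.8% of all promoters. TTTGAA, the core of the element found in mitotic gene promoters, occurred in 10.2%, against 16.0%, and TATAAA in 8.16%, against 12.4%. These are matches of letters and do not show binding.

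Subunits of 1 complex did not all have the same ratio. The complexes were assembled after the ratios were known and include partners that are not among the 49 genes. In polymerase delta, the catalytic Pold1 had -0.85 ± 0.24, whereas the accessory subunits Pold3 and Pold4 had 0.36 ± 0.32 and 0.35 ± 0.14. With arrays centred on their median in place of loess, or on spike-in probes, Pold3 and Pold4 also lay below 0 (Pold3 -0.26 and -0.30, Pold4 -0.05 and -0.09), while all genes moved to medians of -0.49 and -0.53. In polymerase epsilon, Pole had -1.51 ± 0.44, and Pole3 and Pole4, small subunits that bind histones, had -0.23 ± 0.36 and -0.08 ± 0.27. On array 2 alone Pole3 and Pole4 lay above 0, at 0.03 and 0.11, and by the mean of its probes Pole4 lay at 0.01. Chaf1b and Chaf1a of CAF-1 lay at -1.34 and -0.86, and the third subunit, Rbbp4, which serves many other complexes, lay at -0.01 ± 0.70 with opposite signs on the 2 arrays. The range between the lowest and highest measured subunit was 0.91 for the MCM ring, 1.1 for the clamp loader, 1.22 for polymerase delta, 1.43 for polymerase epsilon and 1.34 for CAF-1. It was 0.41 for RPA, where the largest SD between arrays was 0.60, so these 3 subunits did not differ beyond their spread. The largest SD was 0.13 for the MCM ring, 0.55 for the clamp loader and 0.32 for polymerase delta. For polymerase epsilon it was 0.44 and for CAF-1 0.70. In the origin recognition complex the range was 0.65 and the largest SD 0.62.

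**Figure D3:**
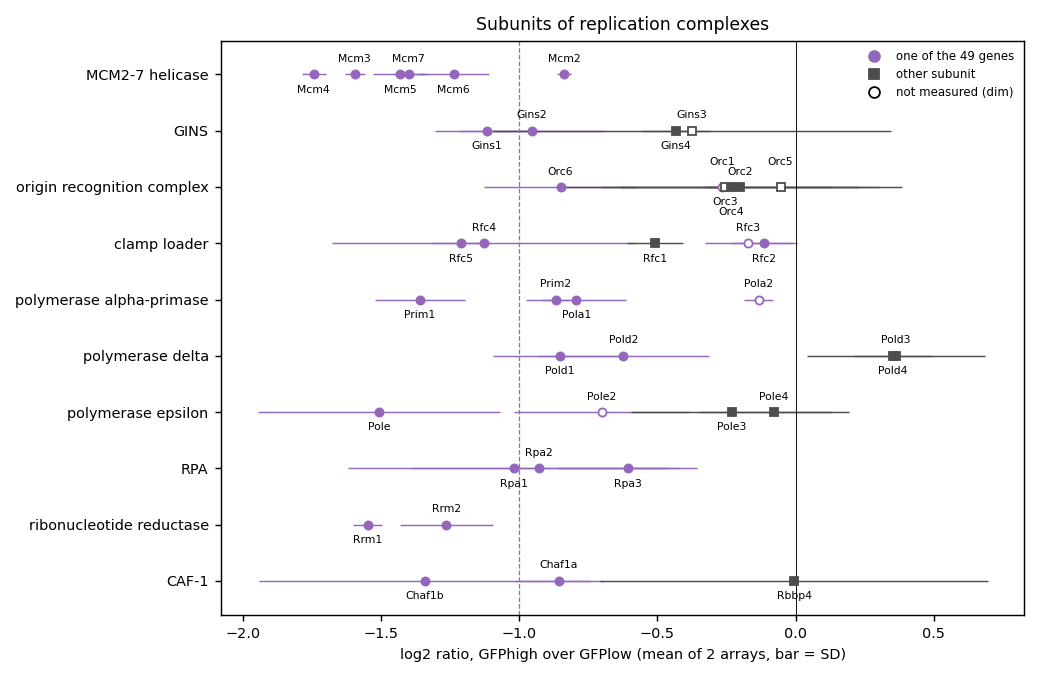
Mean log2 ratio of GFPhigh over GFPlow (horizontal axis, bars are the SD of 2 arrays) of the subunits of 10 replication complexes (rows), with the 49 genes in purple, other subunits in grey and subunits too dim to be measured as open symbols. Mcm2 (-0.84) lies right of the other MCM subunits as processed here but not with the processed signals, and Pold3 (0.36) and Pold4 (0.35) lie right of 0, though left of it with median or spike-in centring, while Pold1 (-0.85) and Pold2 (-0.62) lie left of it.

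Other genes of the same pathways also had medians below that of all genes. Of 83 measured genes in 5 further lists, 8 were called lower in GFPhigh and 0 higher, against 2.69% and 1.76% of all genes, and their median was -0.57. Above background in both populations were 45 of them, of which 2 were called, against 2.23% of such genes, with a median of -0.51. A count of 2 is too near that share to say anything of these genes. Among 22 other origin and fork genes, 3 were called and the median was -0.43. Wdhd1, which links the helicase to polymerase alpha, was not well above background in GFPhigh and was at least 2.19-fold lower there. Chtf18 and Dscc1 belong to an alternative clamp loader. Chtf18 had -1.12 ± 0.12, and Dscc1, not above background in GFPhigh on either array, was about 2.04-fold lower there. Topbp1, which helps to fire origins, had -0.89 ± 0.17, and Rnaseh2a, a subunit of the nuclease that removes RNA from DNA, had -0.76 ± 0.68.

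Among 16 other nucleotide synthesis genes the median was -0.61. None was called, which says nothing about them at shares of 2.69% and 1.76% among all genes. The lowest was Ctps, which makes CTP, with -0.82 and -1.73 on arrays 1 and 2. It was followed by Dtymk, the kinase after Tk1 and Tyms in making dTTP, with -0.50 and -1.60. These 2 genes passed 2-fold on array 2 alone. Gart, a purine synthesis enzyme, had -0.74 ± 0.24.

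Among 14 other chromatin assembly genes, 1 was called and the median was -0.67. The called gene was Nasp, a chaperone of histones, at -1.09 ± 0.05. Asf1b, another histone chaperone, had -1.12 ± 0.19 and Ssrp1, a subunit of the FACT complex, had -1.11 ± 0.24, and each passed 2-fold on array 1 alone. Slbp, which binds the stem loop of histone mRNAs, had -1.06 ± 0.41.

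Among 18 other S-phase repair and checkpoint genes, 2 were called and the median was -0.56. Fanca, of the Fanconi anaemia complex that deals with crosslinks, had -1.46 ± 0.07. Tonsl, a partner in fork repair, had -0.96 and -1.34 on arrays 1 and 2 and passed 2-fold on array 2 alone.

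Among 13 E2F factors and regulators of S phase entry, 2 were called and the median was -0.68. Ccna2, cyclin A of S phase and mitosis, had -1.75 ± 0.28, and E2f2, an activating E2F, had -1.55 ± 0.15. GFPhigh was above background on 1 array for E2f2, Fanca and Chtf18. Ccne1, the cyclin that acts at the entry into S phase, had -1.66 and -0.85, and Tfdp1, the partner with which E2F factors bind DNA, had -1.52 and -0.57. Both passed 2-fold on array 1 alone.

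Repair genes with no tie to S phase were taken as a comparison. Of 16 measured, 0 were called in either direction, and at shares of 2.69% and 1.76% among all genes this count says nothing about them. Their median was -0.20, with a lowest ratio of -0.77 for Apex1, a base excision enzyme, and a highest of 0.18. The 16 genes thus lay between the median of all genes (-0.06) and the medians of the 5 pathway lists, and no difference between lists was tested.

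**Figure D4:**
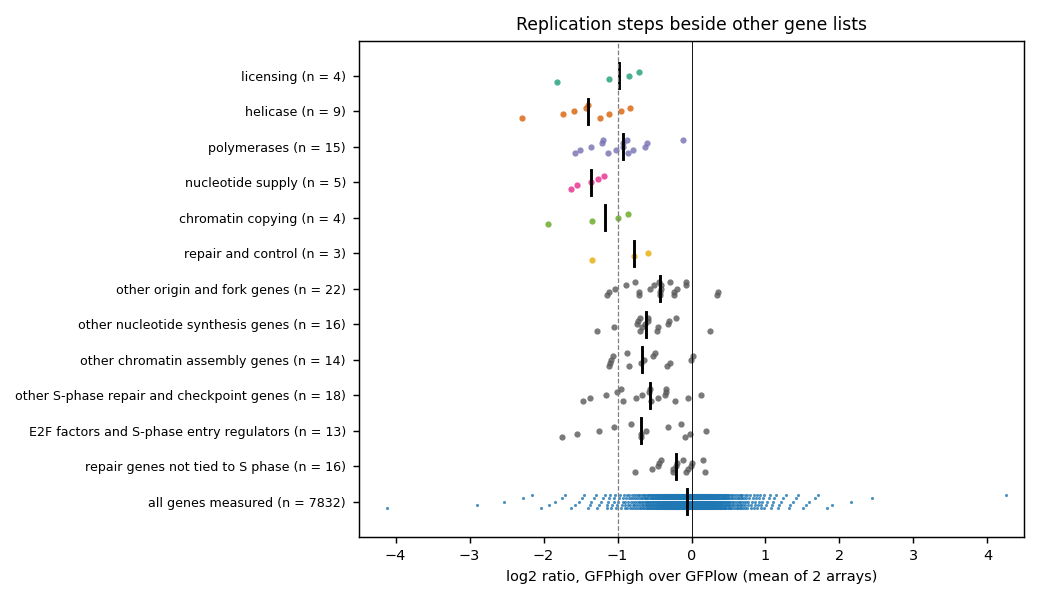
Mean log2 ratio of GFPhigh over GFPlow (horizontal axis) of each measured gene, 1 point per gene, in the 6 steps (coloured), the other pathway lists and the comparison list (grey), and in 900 genes spread evenly over the ranks of all 7832 measured genes (blue). Black bars are medians, which run from -1.40 for the helicase and -1.35 for nucleotide supply to -0.20 for repair genes with no tie to S phase and -0.06 for all genes.

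The size of the difference, but not its direction, followed the processing. Under 14 other settings the median of the measured replication genes ran from -0.97 to -1.77. The number called ran from 13 of 25 to 34 of 40, while the share of all genes called ran from 0.762% to 11.4%. Under all settings tried, 0 were called higher in GFPhigh. Under spike-in centring, where the median of all genes was -0.53, the replication median moved to -1.77 and differed from it by -1.24.

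**Figure D5:**
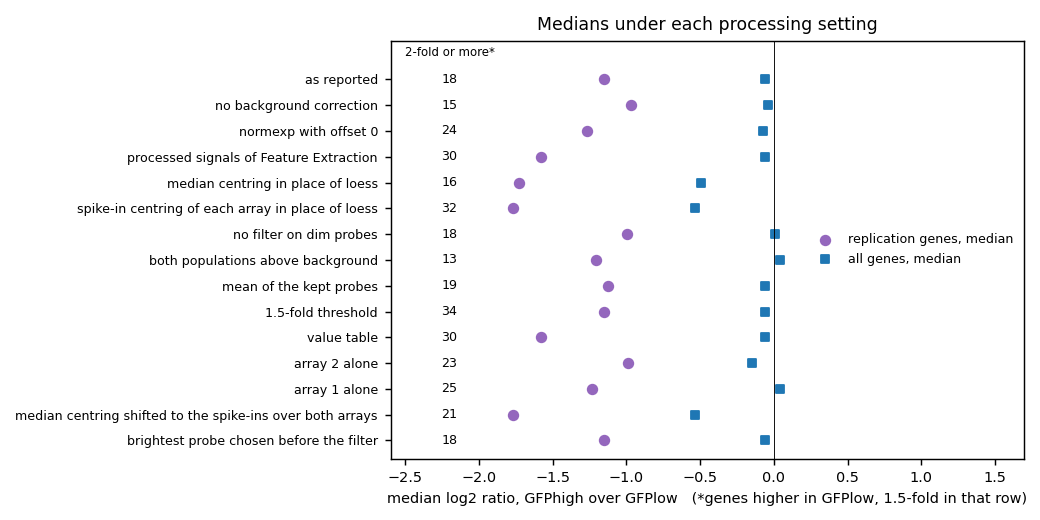
Median log2 ratio of GFPhigh over GFPlow (horizontal axis) of the measured replication genes (circles) and of all measured genes (squares) under each processing setting (rows), with the number of replication genes called lower in GFPhigh written at the left. The circle lies left of the square in every row, with -1.15 against -0.06 as reported. The share of all genes called also changed between rows, from 0.762% to 11.4%.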

How the data were processed

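The authors deposited the scanner output of 2 two-colour Agilent arrays, with mean intensity and median background intensity per spot and channel, per the file headers. The deposited log10 ratio of the same spots, and the series value table that holds it turned to GFPhigh over GFPlow, served as alternatives: table and scanner values differed by at most 0.005 log10, and the column medians were 0.0188 and -0.0458. The headers name Feature Extraction 10.5.1.1 and the submitters' processing notes name 9.5.3. Per the labels, 150 ng of RNA was amplified per labelling. Both arrays lie on 1 slide and 1 scan, so no batch could be tested.

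Intensities were corrected with normexp (offset 50) and loess in limma 3.58.1 under R 4.3.3, with control spots at weight 0 and outlier spots left out. Offset and normexp draw dim ratios towards 0. Spots of a probe were averaged, ratios were turned by dye, and the brightest kept probe stood for a gene. Well above background were 28.6% and 18.7% of gene spots in GFPhigh on arrays 1 and 2, against 25.1% and 31.7% in GFPlow, and the number of arrays limits the precision. Levels are per channel after Aquantile normalization. A bound sets the GFPlow mean level against, per array, the higher of the GFPhigh signal and the lowest signal well above background. For E2f1 and Dscc1 it equals the plain ratio. Bounds hold for the processing reported here only: with no background correction Cdc6 had a ratio of -0.36 and Rrm2 of -0.87. Of 41174 probes, 25097 were named through their accession in a RefSeq table of GRCm38.p6, 6333 by an unchanged and 1640 by an older symbol, and 8104 kept the name of the file. The steps were tested on simulated data.

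The genes and lists were chosen with earlier results of these data known. All 49 genes could be named, and of each further list up to 5 measured genes with the largest absolute ratios. The promoters shown are those of called genes with E2F letters, chosen after their values were seen, since a rule of the 2 lowest genes per step left only Uhrf1. Alternatives covered background correction, signals, centring, filter, probe rule, threshold, value table and each array alone. Some genes of the further lists are not reported here by name.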

Additional observations from a re-analysis of the deposited data

How the results depend on the processing

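The 40 measured genes kept a ratio below 0, and 0 were called higher in GFPhigh, under every setting tried with both arrays. The number called lower in GFPhigh was 18 of 40, where 2.69% of all genes were called. The share of all genes under each setting follows in brackets. The count was 15 with no background correction (1.85%), 16 with median centring (2.61%) and 24 with normexp at offset 0 (4.36%). It was 30 with the processed signals of Feature Extraction (6.51%) and also with the value table (6.47%). Centring each array on its spike-in probes gave 32 (11.4%), and the 1.5-fold threshold gave 34 (7.51%). Without the filter on dim probes 18 of 49 were called (0.762%), and with both populations above background 13 of 25 (2.23%). Each array alone gave 23 of 46 (array 2, 5.45%) and 25 of 41 (array 1, 4.21%). The median of -1.15 moved to -0.97 with no background correction, -1.27 with normexp at offset 0, -1.58 with processed signals or the value table, -1.73 with median centring, -1.77 with spike-in centring, -1.0 with no filter, and between -1.23 and -0.99 for 1 array alone. Median centring and spike-in centring moved the median of all genes to -0.49 and -0.53. The spike-in mixes differ by dye, with means of -0.94 and -1.02 before loess, so a shift to the spike-ins over both arrays was added after seeing the data. It gave 21 calls, against 2.99% of all genes, and a median of -1.77. Choosing the brightest probe before the filter, also added then, gave 18, against 2.7% of all genes, and -1.15. Apart from the threshold, the cause of these moves was not tested. Each ratio pairs the 2 populations within an array. No test over replicates was possible because the labels name no separate RNA samples. With 1 replicate, differences between animals or sorts were not measured, and dim genes, among them Brca1, Brca2, Chek1 and Orc1l, have only ratios drawn towards 0.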

Other observations

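Protein-coding genes that overlap a replication gene or lie within 1 kb of it in the RefSeq table were set beside it. Of 26 such pairs, 10 had both genes measured. The neighbours had a median of 0.30. Since 36 of the 40 measured replication genes lie among the lowest 10% of ratios, a higher ratio in the neighbour carries no information. None of the 10 neighbours was called, and at shares of 2.69% and 1.76% among all genes a count of 0 says nothing about them. Their ratios ran from -0.27 for Vps35, beside Orc6l, to 0.75 for Ubxn6, beside Chaf1a. Pxmp2, beside Pole at -1.51, had 0.35 ± 0.68, and Eif4a2, beside Rfc4 at -1.13, had 0.50 ± 0.13. Cops6, beside Mcm7 at -1.40, had -0.16 ± 0.24. Pcna at -1.19 had Cds2 at 0.14 ± 0.36 and Tmem230 at 0.34 ± 0.13 beside it. The named pairs were chosen after their values were seen, neighbours had to pass the same brightness filter, and no test was made.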
